A study of Canis lupus familiaris with 12 samples.

Results

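Of the 14640 canine gene models whose symbol is a placeholder beginning with LOC, 115 separated hippocampus after rapid atrial pacing from hippocampus after sham surgery. They were chosen by 3 conditions on the deposited RPKM values, which scale reads to exon length and to the assigned reads of the library. The mean over the 6 hippocampal libraries had to reach 0.5, all 3 pacing values had to lie on one side of all 3 sham values, and the ratio of arm means, each with 0.1 added, had to reach 2 or fall to 0.5. The floor of 0.5 was met by 3322 LOC models, counted without 1 model that the rule leaves out, and 11317 were under it. Pacing was above sham in 40 of the 115 and below it in 75. The rule used the pacing and sham values, so every difference between the arms in these 115 is a description with no test.

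All animals were beagles. One arm had 2 weeks of rapid atrial pacing, an electrical stimulation that drives the atria fast and is used to model atrial fibrillation, and the other had a sham operation. The study asked how atrial fibrillation bears on cognition, and it also sequenced microRNA from exosomes of epicardial fat, which was not used here. Each arm had 3 hippocampal samples out of 12 in the series; the labels give no age or sex and leave unstated whether every sample is a separate dog, so p-values measure only the spread between samples, which may be technical. These are bulk samples, in which fewer cells of a type and less RNA per cell cannot be told apart.

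A LOC symbol is given by NCBI's annotation pipeline to a predicted gene that has no approved name and no clear named ortholog. Such models include long noncoding RNAs, which are transcribed and often spliced but carry no long reading frame. They also include recent copies within gene families, processed pseudogenes made when a messenger RNA is copied back into the genome, and coding genes whose ortholog was uncertain. Brain expresses many long noncoding RNAs, often at low levels, and a number of them overlap or lie next to coding genes on the opposite strand.

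The libraries held 35003483 to 51789497 reads on gene models, and the 115 models took 0.0391 to 0.0713% of them. Markers fixed for hippocampal subfields summed to 60.9 to 62.7 RPKM in pacing and 36.5 to 73.9 in sham, with 4 of 4 genes expressed. Sham library 2 stood apart from the other 5 in several marker lists. Its 5 oligodendrocyte markers summed to 2538 RPKM against 996 to 1713 elsewhere, its 4 measured astrocyte markers to 1951 against 923 to 1280, and its 8 neuronal markers to 1380 against 2007.9 to 2205. Its 6 choroid plexus markers summed to 455 against 5.86 to 159, and its 6 measured immediate early genes to 43.3 against 11.1 to 22.9. TTR alone gave 449 of the 455. FOLR1 and KCNJ13 were also highest in sham 2, but KL, CLIC6 and AQP1 were not. Most of the astrocyte sum was GFAP, at 1525 RPKM in sham 2. AQP4 and GJA1 were also highest there, but SLC1A2 was not. None of these lists separated the arms, and none had a gene at 0 in all libraries. The sum of the pericyte markers did separate them, at 26.1 to 26.8 RPKM in pacing against 21.7 to 23.7 in sham, with 3 of 3 higher on average in pacing. RGS5 and MYH11 had arms apart. PDGFRB overlapped, at 2.90, 2.86 and 2.98 RPKM in pacing and 3.53, 2.80 and 2.12 in sham. Of 6 ependymal markers 4 were measured and 4 of these 4 were lower on average in pacing, with overlapping sums of 2.78 to 5.38 and 5.34 to 8.53 RPKM. Arms were apart and lower in FOXJ1, a regulator of motile cilia, at a mean of 0.290 against 0.783 RPKM, and in HYDIN, a structural protein of cilia, at 0.392 against 0.982.

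Which sham library was highest differed between the lower and the higher models. In the 75 lower models, sham 2 was the highest sham value in 45, against 41.7% of the 3207 other LOC models and 40.5% of all models tested. Sham 1 was the lowest sham value in 45 of the 75 (60%), against 38.2% of other LOC models. In the 40 higher models, sham 1 was the highest sham value in 18 (45%), sham 2 in 16 (40%) and sham 3 in 6 (15%). Among other LOC models these shares were 27.3, 41.7 and 30.9%. Sham 3 was the lowest sham value in 21 of the 40 (52.5%), against 30.7% of other LOC models. The median coefficient of variation of the 115 was 0.204 in pacing and 0.461 in sham, whereas that of other LOC models was 0.136 and 0.230. The rule selects on the same values, and the other LOC models did not have to meet it. These shares and coefficients may therefore follow in part from the rule. Without sham 2 the rule found 122 models, 56 higher and 66 lower, of which 77 were among the 115. Without sham 1 it found 233, of which 100 were among the 115. With a library left out fewer values have to lie apart, an easier condition, so these counts are not like for like with the 115. The part of the marker lists in these models was not tested.

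**Figure D1:**
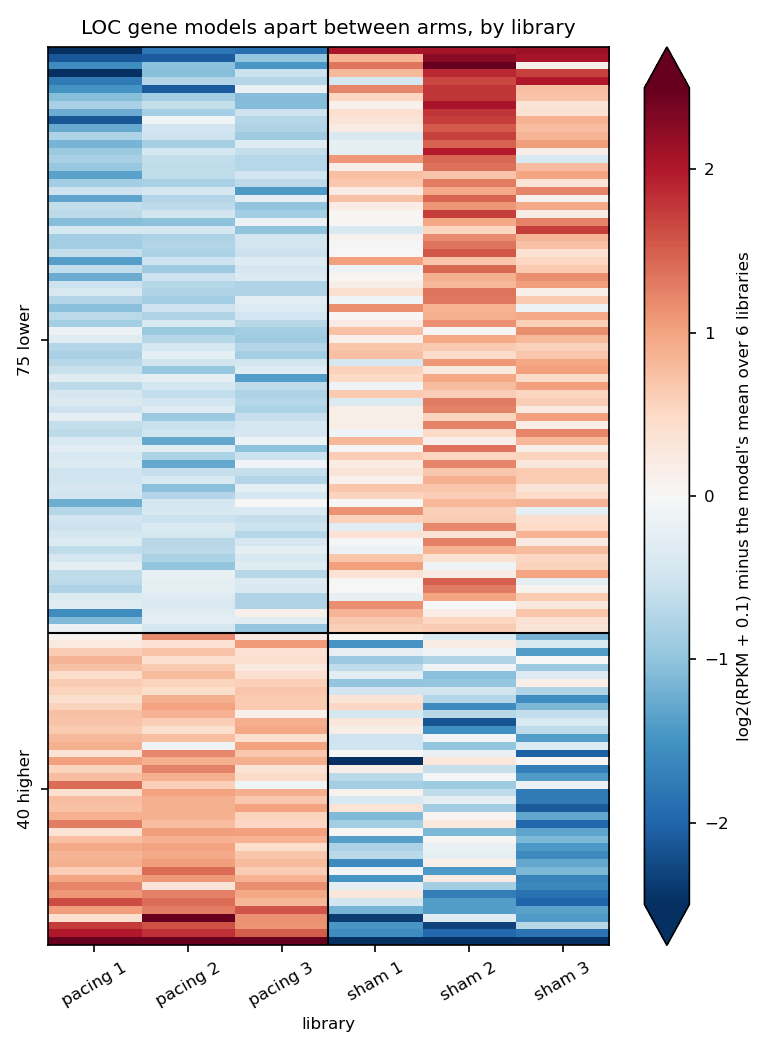
Log2(RPKM + 0.1) of the 115 LOC models (rows, ordered by ratio, 75 lower at the top and 40 higher at the bottom) in 6 hippocampal libraries (columns), each minus the model's mean over the libraries. The pacing columns are more even than the sham columns, and sham 2 holds the highest sham value in 45 of the 75 lower models.

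The 115 models were 3.46% of the LOC models above the floor, 1.2% for the higher and 2.26% for the lower direction. The same conditions were met by 75 of 12767 models with a gene symbol, 0.587% (0.251% higher and 0.337% lower), and by 1.18% of all 16089 models (0.448% higher and 0.733% lower). With no ratio asked, the arms were apart in 19.3% of LOC models (5.51% higher and 13.8% lower), in 15.4% of models with a symbol (4.76% and 10.6%) and in 16.2% of all models (4.92% and 11.3%). These shares follow from the conditions of the rule and are given as background. The ratio lay between 2 and 3 in 29 of the 40 higher models, and the lower models were 2-fold to 3-fold lower in 57 of 75. It exceeded 4 in 6 higher and 7 lower models. Just inside the thresholds were LOC111098914 at a ratio of 2.00, LOC111089994 at 2.02, LOC102152374 at 0.498 and LOC100682930 at 0.497. Just outside were LOC111097008 at 1.97, LOC102156352 at 1.95, LOC106557568 at 0.5001 and LOC111090219 at 0.502.

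The models were weakly expressed. Their mean RPKM over the libraries ran from 0.502 to 36.6 with a median of 1.20, and 43 of the 115 were under 1. A single model rested on 48 to 21720 reads over the 6 libraries, with a median of 390, and 14 models had fewer than 100. Exact 95% intervals of the ratio of read shares, which cover counting error only, lay wholly beyond a 2-fold difference in 68 models and reached inside it in 47. These intervals take every read as independent. In some models all libraries held even read numbers, such as 364, 304, 208, 34, 26 and 20 in LOC102151856. If both reads of a pair were counted, all the intervals given here are too narrow and 68 is too many. Whether they were was not tested. The arms were close in 16 models, where the nearest pacing and sham values, each with 0.1 added, differed by less than 1.1-fold.

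**Figure D2:**
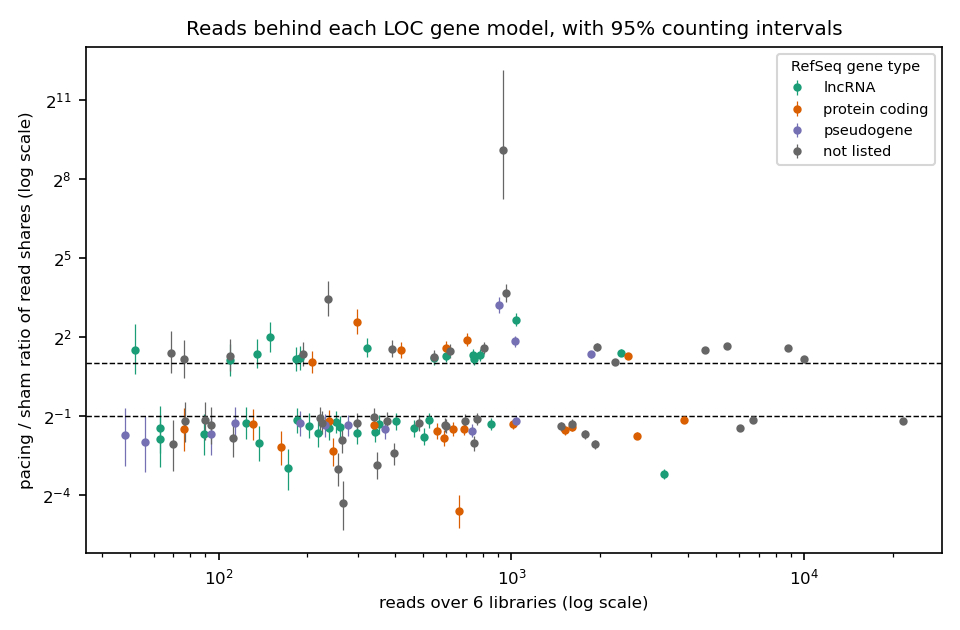
Ratio of read shares, pacing over sham (log scale), against the reads of each of the 115 models over 6 libraries (log scale), coloured by RefSeq gene type, with bars for exact 95% counting intervals and dashed lines at 2 and 0.5. Intervals narrow from left to right, and 47 of them reach inside the dashed lines.

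By RefSeq gene type, 35 of the 115 were long noncoding RNAs (14 higher and 21 lower), 22 were coding (6 and 16) and 13 were pseudogenes (3 and 10). The other 45 (17 higher and 28 lower) are not listed in the RefSeq table of the newer assembly UU_Cfam_GSD_1.0, that is 39.1%, against 31.5% of the other LOC models. Of the 70 listed, 65 lay on the same chromosome as in the deposited table and 1, LOC100685335, has since received the symbol SPTY2D1OS. The models were short, with a median of 954 exon bases against 1361 in other LOC models and 2743 in all models tested. Single-block models made up 19.1%, against 18.3% of other LOC models. The genomic span had a median of 4259 bases against 6096.

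On CanFam3.1, the assembly whose sequence names the deposited table uses, 101 of the 115 lay on 37 chromosomes. The other 14, 7 higher and 7 lower, lay on 12 unplaced sequences. That is 12.2%, against 4.12% of other LOC models and 1.11% of all models. Chromosome 16 held 7 of the 115, and chromosomes 6 and 21 held 6 each. Of the 115, 54 overlapped another gene model, 25 lay wholly inside one and 18 lay inside a gene with a symbol. Exon bases were shared with another model by 26, of which 24 shared them with a model on the opposite strand. The library kit is stranded, per the labels' protocols, but the sources used here do not give the strand setting of the counting, so reads of such pairs may not be told apart.

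Among the higher models, the 2 with the largest ratios were short single blocks. LOC106558560, a single block of 399 bases on an unplaced sequence, had 20.9, 23.5 and 13.6 RPKM in pacing and 0, 0 and 0.137 in sham. All 3 sham libraries lay at or near 0, since they held 2 reads together against 936 in pacing. The ratio of read shares was 542 with a counting interval of 150 to 4485.

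LOC102151856 is a single block of 402 bases on chromosome 15, bases 49438852 to 49439253, inside FAM160A1 on the opposite strand and without shared exon bases. Its values were 20.9, 18.5 and 14.8 RPKM in pacing and 1.69, 1.25 and 1.36 in sham, which places every pacing library far above every sham library. The ratio of read shares was 12.7 (10.1 to 16.2). The host gene FAM160A1 had 0.795 ± 0.133 RPKM in pacing and 0.789 ± 0.155 in sham (SD, n = 3 here and below). Its arms overlapped, and its adjusted p by limma was 0.991. GATB, the next gene with a symbol, which encodes a subunit of a mitochondrial transfer RNA amidotransferase, had 7.76 ± 2.05 and 8.30 ± 1.52 RPKM.

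LOC100684271, a pseudogene of 3 blocks on chromosome 2, had 5.26, 4.71 and 3.35 RPKM in pacing and 0.483, 0.220 and 0.878 in sham. It lies between ZBTB8A and ZBTB8B, which encode zinc finger proteins of the BTB class. Its arms were well apart, with 804 reads in pacing against 101 in sham and a ratio of 7.24. ZBTB8A was at 1.66 ± 0.156 RPKM against 1.08 ± 0.236 and did not pass the limma test (adjusted p = 0.455), and ZBTB8B was lower on average in pacing, at 0.680 ± 0.130 against 0.985 ± 0.398.

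LOC608048, listed as coding, is a single block of 428 bases inside FNIP1, the gene of a folliculin-interacting protein, on chromosome 11. It measured 5.92, 5.03 and 3.34 RPKM in pacing and 1.31, 0.632 and 0.383 in sham. The lowest pacing library was above the highest sham library by more than the range of the sham arm. That gap was less than the range of the pacing arm. FNIP1 itself was at 8.38 ± 1.53 and 7.89 ± 1.29 RPKM.

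LOC100688742, a single-block pseudogene between GUSB, which encodes the lysosomal enzyme beta-glucuronidase, and ASL, which encodes argininosuccinate lyase of the urea cycle, had 9.60, 10.9 and 8.89 RPKM in pacing. Its sham values were 5.45, 1.28 and 1.16, so that sham 1 alone reached toward the pacing arm. The log2 ratio of 1.86 became 2.90 without sham 1.

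LOC102152881, a long noncoding RNA of 8 blocks on chromosome 37, had 9.42, 11.1 and 13.7 RPKM in pacing and 1.96, 1.65 and 1.71 in sham. Its sham arm was tight, and the ratio of read shares was 6.33 (5.34 to 7.53). LOC102153980 on chromosome 8 showed the opposite, a wide pacing arm. It measured 0.584, 2.92 and 1.04 RPKM in pacing and 0, 0.310 and 0.0925 in sham. Pacing 2 gave most of its signal, and without that library the log2 ratio went from 2.78 to 1.96. LOC102151392, a long noncoding RNA inside NRG3, the neuregulin 3 gene, had 0.851, 1.53 and 0.864 RPKM in pacing and 0.493, 0.130 and 0.184 in sham, on 150 reads in all.

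**Figure D3:**
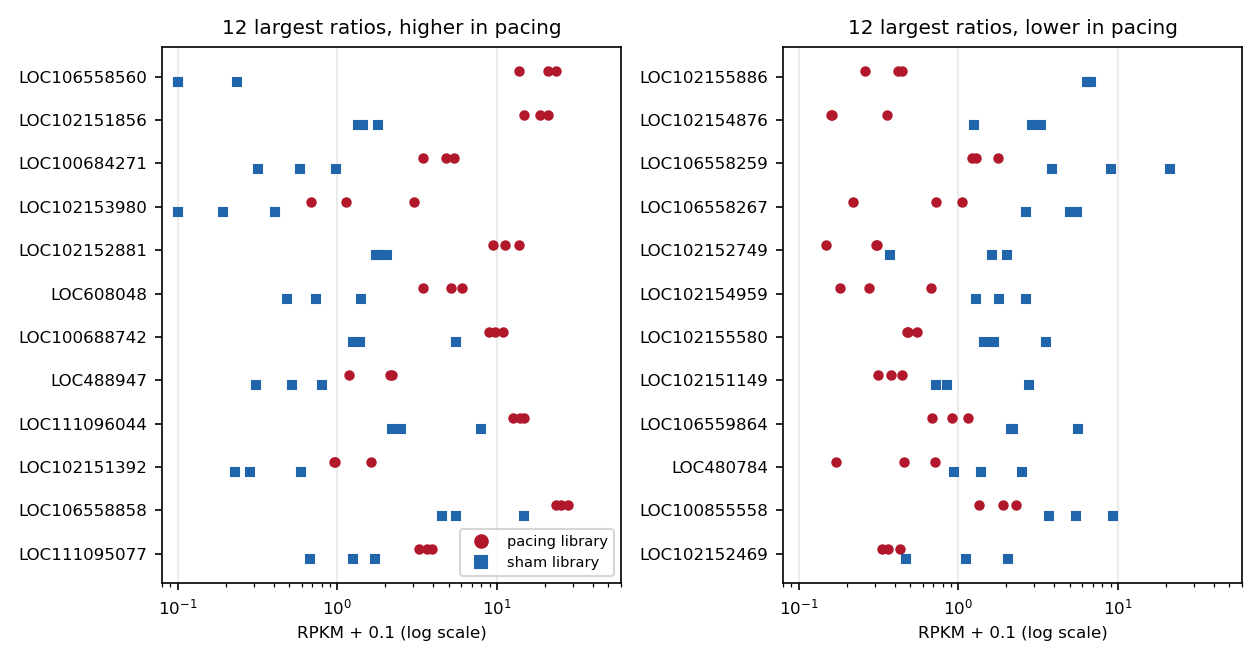
RPKM + 0.1 on a log scale for the 12 higher (left) and 12 lower (right) models of largest ratio, with circles for the 3 pacing libraries and squares for the 3 sham libraries. The circles and squares of a model never overlap, as the rule requires, and the widest spread is among the sham squares.

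Several higher models were neighbours of each other. On chromosome 5, LOC111096044 (bases 78385233 to 78391116) and LOC106558858 (78395360 to 78397526) lie on the minus strand inside the span of another placeholder model, LOC102153393. LOC111096044 had 13.8, 14.7 and 12.6 RPKM in pacing and 2.40, 7.92 and 2.09 in sham. LOC106558858 had 25.1, 27.98 and 23.4 in pacing and 4.44, 14.7 and 5.48 in sham. In both, sham 2 was the highest sham library and still below every pacing library. Without sham 2 the log2 ratios rose from 1.70 to 2.56 and from 1.63 to 2.34. The next gene with a symbol, ZFHX3, which encodes a zinc finger homeobox transcription factor, was at 0.936 ± 0.0597 RPKM in pacing and 0.987 ± 0.173 in sham.

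On chromosome 6, 3 higher models follow each other over 15662 bases between ZNF12 and RBAK, both zinc finger genes. LOC102152050 had 11.0, 10.4 and 7.78 RPKM in pacing and 4.19, 6.18 and 3.41 in sham. LOC609183 had 1.83, 2.00 and 1.72 in pacing and 0.775, 0.875 and 0.237 in sham. LOC102151886 was the most abundant, at 21.6, 20.9 and 16.2 in pacing and 8.65, 11.6 and 4.64 in sham. In all 3, sham 3 was the lowest library and sham 2 the highest of the sham arm. LOC609183 and LOC102151886 are on opposite strands and share 414 exon bases. RBAK, next in order, had 4.25, 4.01 and 3.15 RPKM in pacing and 2.47, 2.67 and 2.05 in sham. Its arms were apart too, by 0.50 on the log2 scale (SE 0.13), with an adjusted p of 0.379 by limma. ZNF12, on the other side, was at 3.12 ± 0.200 and 3.53 ± 0.449 RPKM.

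Unplaced sequences held 2 further pairs of this kind. LOC607286 had 8.74, 9.49 and 7.16 RPKM in pacing and 3.14, 5.02 and 1.85 in sham, and LOC102151653 on the opposite strand, which also shares 414 exon bases with it, had 15.7, 16.3 and 11.0 against 4.65, 7.22 and 2.93. The RefSeq table of the newer assembly places LOC607286 on chromosome 6, the chromosome of the previous group. LOC102151334 and LOC111095077, on one other unplaced sequence, had 13.1, 13.02 and 10.4 against 3.21, 7.32 and 2.78 RPKM and 3.55, 3.81 and 3.15 against 1.16, 1.62 and 0.575. Each of these 4 models shares with the chromosome 6 group the order of its sham libraries, with sham 2 highest and sham 3 lowest. Near-identical copies could divide reads among such models, and whether they did was not tested because no sequence was used here.

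Among the lower models, LOC102155886, a coding model of 4 blocks on chromosome 21 between SAAL1 and SAA1, had the largest fold. It had 0.161, 0.341 and 0.319 RPKM in pacing and 6.29, 6.45 and 6.72 in sham, with 23 reads against 640. The sham values lay close together, whereas the pacing values, on few reads, were more uneven. LOC476879, beyond SAA1, had 1.48, 1.12 and 1.76 RPKM in pacing and 3.36, 2.67 and 4.62 in sham. SAA1, which encodes an acute-phase apolipoprotein, lies between them and had arms apart as well, with an adjusted p of 0.151 by limma. The neighbour SAAL1 was at 3.39 ± 0.113 RPKM against 3.61 ± 0.286. Of 7 acute-phase genes fixed as a list, 3 had a row and summed to 0.819 to 0.867 RPKM in pacing and 2.00 to 2.80 in sham, nearly all of it SAA1, since LBP and LCN2 were at or near 0. Copies of this family are similar, so reads may be divided among them.

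The second largest fold was on chromosome 28. LOC102154876, 3 blocks at bases 41158956 to 41167727, had 0.0588, 0.0624 and 0.255 RPKM in pacing and 1.15, 3.18 and 2.79 in sham, 11 reads against 254. Both flanking genes were low in the same libraries. SYCE1, which encodes a central element protein of the synaptonemal complex of meiosis and lies 1533 bases away on the opposite strand, had 0.0620, 0.0329 and 0.615 RPKM in pacing and 1.77, 6.96 and 6.05 in sham. Its log2 difference was -2.15 (SE 0.40) with an adjusted p of 0.272 by limma. MIR8818, a microRNA locus 1018 bases beyond on the same strand as LOC102154876, had 0 reads in pacing, which a floor of 3 reads limits, and 22 in sham, with an adjusted p of 0.366 by limma. In each of the 3, sham 1 was the lowest sham library, and pacing 3 was the highest pacing library of SYCE1 and LOC102154876.

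LOC106558259 on chromosome 35 is a long noncoding RNA inside PHACTR1, which encodes a phosphatase and actin regulator, on the opposite strand and without shared exon bases. It had 1.12, 1.66 and 1.20 RPKM in pacing and 8.97, 21.2 and 3.78 in sham. The pacing values were close together, whereas the sham values covered a wide range with sham 2 highest. The log2 ratio of -2.997 became -2.18 without sham 2. PHACTR1 was at 37.1 ± 0.750 RPKM in pacing and 31.9 ± 5.99 in sham, with overlapping arms and an adjusted p of 0.630 by limma.

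LOC106558267, also on chromosome 35, lies between SERPINB1 and SERPINB9, which encode intracellular inhibitors of serine proteases. It had 0.118, 0.625 and 0.9499 RPKM in pacing and 2.56, 5.48 and 4.90 in sham. Its arms were apart by more than the range of the pacing arm, but by less than the range of the sham arm. SERPINB1 was at 19.2 ± 1.51 and 24.3 ± 6.39 RPKM, and SERPINB9 at 5.47 ± 0.213 and 4.88 ± 0.174. LOC102152749, a long noncoding RNA on chromosome 24 that shares 11 exon bases with RIPOR3 on the other strand, had 0.0483, 0.205 and 0.210 RPKM in pacing and 0.273, 1.52 and 1.92 in sham. Its sham 1 value was close to the pacing arm. LOC102154959, on an unplaced sequence, had 0.175, 0.0825 and 0.578 in pacing and 1.69, 2.57 and 1.20 in sham.

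On chromosome 16, 2 overlapping models on opposite strands were low together. LOC102155580 had 0.388, 0.455 and 0.380 RPKM in pacing and 1.35, 3.42 and 1.58 in sham, and LOC106559864, which shares 431 exon bases with it, had 0.589, 0.810 and 1.05 against 2.09, 5.54 and 2.03. Elsewhere on that chromosome LOC102151149 had 0.282, 0.345 and 0.215 against 0.622, 2.69 and 0.746. Sham 2 was the highest library in all 3. Their log2 ratios of -2.13, -1.86 and -1.93 became -1.62, -1.24 and -1.04 without it.

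A further group on chromosome 16 lies next to FRG1, which encodes a nuclear protein linked to RNA processing. LOC111090332, the most abundant of the 115, lies 270 bases from FRG1 on the same strand and had 21.6, 22.2 and 24.3 RPKM in pacing and 36.9, 77.3 and 37.2 in sham. LOC102151654, on the opposite strand within its span, had 2.33, 2.04 and 2.43 against 3.61, 10.7 and 4.67. LOC100683241 had 1.32, 1.004 and 1.01 against 2.35, 4.66 and 1.98. LOC111090334 and LOC111090333 overlap the span of LOC111090332 on the opposite strand. LOC111090332 shares up to 280 exon bases with an overlapping model, so reads of these models may in part be the same. The neighbours that missed the ratio had arms apart in the same direction, FRG1 at 126 ± 5.97 RPKM against 170 ± 51.2, LOC111090334 at 43.8 ± 1.72 against 65.2 ± 20.6 and LOC111090333 at 8.43 ± 0.384 against 13.6 ± 4.93. None of these 3 passed the limma test. Sham 2 was again highest in every one, and without it the log2 ratio of LOC111090332 went from -1.15 to -0.71, that of LOC102151654 from -1.44 to -0.84 and that of LOC100683241 from -1.35 to -0.90.

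Coding models at 2 loci were low in pacing as pairs. On chromosome 6, LOC100855540 had 2.52, 2.04 and 2.90 RPKM in pacing and 3.58, 10.7 and 6.20 in sham, and LOC100855558 had 1.24, 2.20 and 1.80 against 3.60, 9.17 and 5.36. They lie beside HBM, which encodes the mu chain of haemoglobin, and HBM itself held 2 reads in all. On chromosome 21, LOC480784 had 0.0721, 0.612 and 0.358 against 0.846, 2.42 and 1.28, and LOC609402 had 4.86, 4.39 and 6.66 against 7.57, 20.4 and 12.9. All 4 had the sham libraries in one order, sham 2 highest and sham 1 lowest. Without sham 2 the log2 ratios went from -1.42 to -0.95 in LOC100855540, from -1.73 to -1.31 in LOC100855558, from -1.85 to -1.38 in LOC480784 and from -1.35 to -0.94 in LOC609402. Of the erythrocyte markers 4 of 4 were lower on average in pacing, but HBM and SLC4A1 held only 2 reads each, too few to compare. ALAS2, the erythroid enzyme of haem synthesis, was at 0.990, 1.11 and 1.26 RPKM in pacing and 1.12, 1.94 and 1.32 in sham. AHSP was at 0.370, 0.655 and 0.357 against 0.536, 0.448 and 0.537, with sham 2 its lowest sham library. The arms of both overlapped. The summed list overlapped, at 1.36 to 1.76 and 1.65 to 2.47 RPKM, and its part in these 4 models was not tested.

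Some of the more abundant lower models lie on unplaced sequences. LOC100855538, a single coding block of 542 bases, had 18.2, 11.8 and 20.9 RPKM in pacing and 39.5, 40.0 and 30.7 in sham, with an even sham arm. In the newer assembly's gene order it stands on chromosome 8 next to an entry of type C_region, the type used for constant regions of immunoglobulin and T-cell receptor genes. LOC100856742 had 3.04, 4.63 and 6.54 against 12.9, 21.4 and 8.39. LOC607401 had 6.44, 8.05 and 8.12 against 23.2, 16.04 and 9.04, with sham 1 highest. LOC102152469 on chromosome 9, which shares 76 exon bases with BTBD17 on the other strand, had 0.265, 0.331 and 0.233 against 0.373, 1.94 and 1.02, with sham 1 close to the pacing arm.

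**Figure D4:**
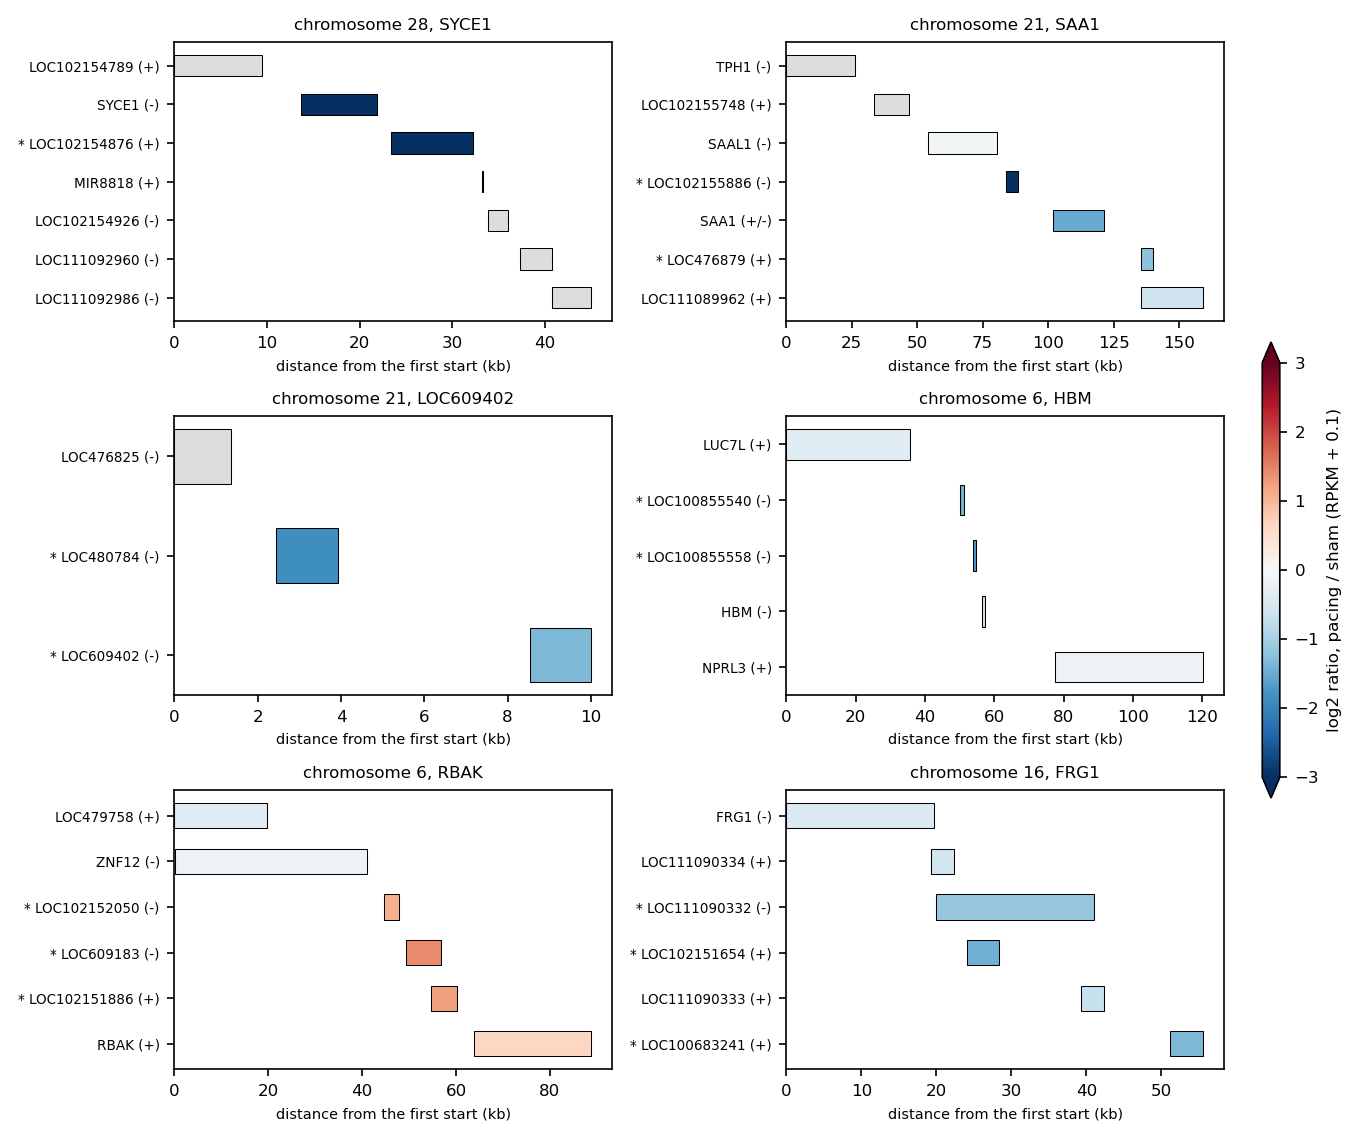
Gene models of 6 loci drawn by distance from the first start in kb, named with their strand and an asterisk for the 115 LOC models, and coloured by the log2 ratio of pacing to sham with 0.1 RPKM added (grey where the mean RPKM is under 0.5). SYCE1 and RBAK share the colour of the LOC models beside them, whereas SAAL1 and ZNF12 are near 0.

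The loci on chromosomes 4, 32, 36 and 12 that follow were chosen after their values were seen. On chromosome 4, LOC488947, a coding model of 2594 exon bases separated by LOC606817 from the interferon-induced gene IFIT3, had 2.11, 1.09 and 2.04 RPKM in pacing and 0.703, 0.424 and 0.211 in sham. IFIT3 was at 3.47 ± 0.166 RPKM against 2.38 ± 0.673 with arms apart. On chromosome 32, 3 long noncoding RNAs of one stretch were higher in pacing, LOC111093624 at 1.84 ± 0.495 RPKM against 0.578 ± 0.373, LOC106558141 at 7.61 ± 1.62 against 2.84 ± 1.69 and LOC111093622 at 1.09 ± 0.203 against 0.449 ± 0.346. Sham 1 was the highest and sham 3 the lowest sham library in all 3.

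On chromosome 36, LOC102155667 was at 0.974 ± 0.314 RPKM in pacing against 3.28 ± 1.72 in sham and LOC102155595 at 1.28 ± 0.206 against 3.70 ± 1.71. On chromosome 12, LOC111098214 lies opposite CFB, the complement factor B gene, with 127 shared exon bases. CFB was at 3.61 ± 0.322 RPKM against 6.89 ± 2.94, also with arms apart but an adjusted p of 0.457 by limma.

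The neighbours of the 115, which the rule did not use, were tested across all models with limma on log2(RPKM + 1). Overlapping and nearest gene models on each side came to 235 that are not among the 115, of which 144 reached the floor and 114 of those carry a symbol. No neighbour passed at a Benjamini-Hochberg adjusted p under 0.05, by limma or by edgeR on recovered reads. Of the 15975 models outside the 115, 0% passed by limma. By edgeR 5 of all 16090 models passed, 4 of them among the 115 that the rule chose. The smallest adjusted p among neighbours was 0.151, for SAA1. At an unadjusted p under 0.05, 22 neighbours passed by limma (4 higher and 18 lower), 15.3% against 8.54% of the models outside the 115, and 24 by edgeR. Some neighbours share exon bases with one of the 115, among them HPD, CFB, CPAMD8 and LOC111089962 of these 22. LOC111090334 and LOC111090333, also of these 22, overlap LOC111090332, which shares up to 280 exon bases with an overlapping model. Reads of all such neighbours may in part be those the rule used, so they are not a separate test. Without sham 1, 3 of 145 neighbours (MIR8818, SAA1 and SYCE1) passed by limma, 2.07%, beside 74 of 15973 models outside the 115, 0.463%, where there had been none with all libraries.

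The neighbours were also counted by direction, with no test. Among 105 tested neighbours of lower models, the arms were apart and lower in 23 and apart and higher in 2, with a median log2 difference of -0.09. Of the 23, 7 overlap a lower model and may share reads with it. FRG1, LOC111090333 and LOC111090334 of the 23 lie at the same locus, so the 23 are not independent. Among 39 tested neighbours of higher models, 3 were apart and higher and 4 apart and lower, with a median of -0.03. Over all models the median was -0.04, and of those outside the 115, 10.9% were apart and lower and 4.71% apart and higher. After SAA1, SYCE1 and MIR8818, the neighbours with a symbol and the smallest unadjusted p were RBAK and ARMC12, an armadillo repeat gene beside LOC111098231, which had 2.73 ± 0.398 RPKM after pacing against 4.17 ± 0.617. Its limma adjusted p was 0.399 at a log2 difference of -0.47 (SE 0.14).

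**Figure D5:**
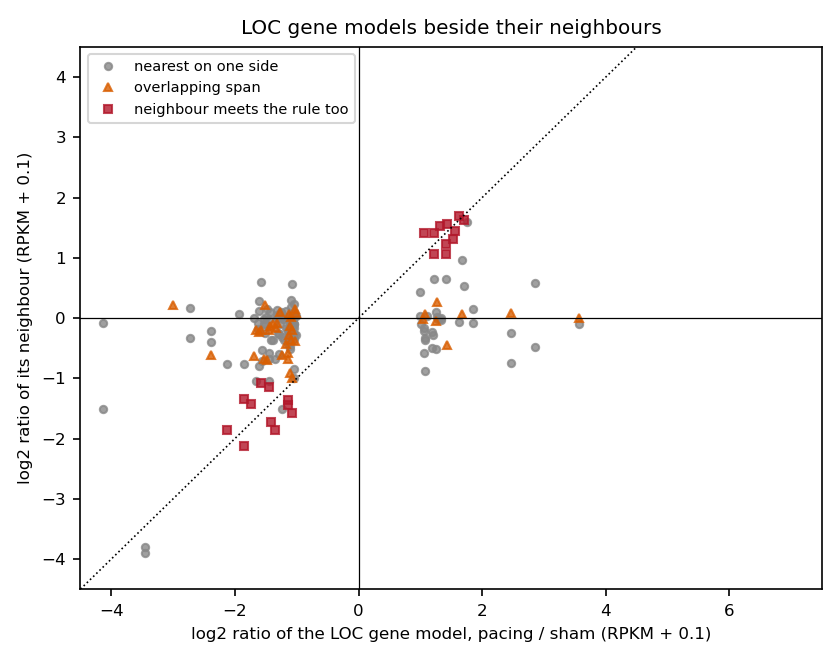
Log2 ratio of pacing to sham with 0.1 RPKM added for the LOC models with a tested neighbour or one among the 115 (horizontal) and for that neighbour (vertical), with circles for the nearest model on a side, triangles for overlapping models and squares for neighbours that are themselves among the 115. Most circles and triangles lie near 0, and the squares lie in the same quadrant as their neighbour.

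Neighbouring pairs within the 115 always had the same direction. There were 8 runs of consecutive models, holding 17 of the 115, and 26 models lay within 100 kb of another of the set. Overlapping pairs on opposite strands are among these, such as LOC609183 with LOC102151886 and LOC102155580 with LOC106559864, and a pair that shares exon bases may count the same reads. Hence the 115 are not 115 independent observations.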

How the data were processed

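Hippocampal libraries of 3 pacing and 3 sham samples were compared. Tools named in the submitters' processing notes are featureCounts, STAR 2.5.3a and Trimmomatic 0.36. The sources used here do not give the annotation release, the strand setting or the handling of molecular identifiers. The authors deposited RPKM and an exon length per gene model, and the deposited exosome values are RPM, which entered no comparison. RPKM times length gave whole reads in every library (largest departure 4.33e-08), and these supplied read totals, exact 95% intervals of read-share ratios and the edgeR test. Neighbours were tested in R 4.3.3 with limma 3.58.1 (trend, log2(RPKM + 1), mean RPKM of at least 0.5, no block) and edgeR 4.0.16, two-sided, adjusted over 16090 models.

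The members and lists were chosen with earlier results of these data known. Named are the 12 largest ratios and 5 most abundant models in each direction, all runs, the models nearest the thresholds and neighbours by overlap, nearness or smallest p. Gene type and order came from RefSeq (UU_Cfam_GSD_1.0), and coordinates from the deposited table. Promoter motifs were not searched, since no sequence was used here. Alternatives changed the pseudocount, floor, ratio, scaling and test, added a replicate block and left out each library. On simulated reads for this comparison (16090 models, dispersion 0.05), limma found 53 of 100 genes changed 2-fold and 100 of 100 changed 4-fold. Its 175 calls held 22 unchanged genes. By edgeR 63 and 100 were found, with 11 unchanged genes among 174 calls. These rates hold for the simulated settings only. The LOC models chosen by the rule had a median of 390 reads over the 6 libraries. Their median coefficient of variation in sham was 0.461. Recovery among models this weak and uneven, or among weak neighbours, was not tested separately.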

Additional observations from a re-analysis of the deposited data

How the results depend on the processing

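The count of 115 models (40 higher, 75 lower) depended on the settings of the rule. It was 61 (26 and 35) with 0.5 added in the ratio, 72 (43 lower) with a floor of 1 and 254 (72 and 182) with a floor of 0.1. A ratio of 1.5 gave 313 (91 and 222), a ratio of 3 gave 29 (11 and 18) and a ratio of 4 gave 13 (6 and 7). Median-of-ratios scaling gave 110, of which 103 were among the 115, with 42.7% higher against 34.8%; TMM scaling gave 110, of which 106 were, with 40% higher. Leaving out each library in turn, which leaves fewer values that have to lie apart, gave 122 to 233 models. Of these 40 to 77 were higher and 66 to 156 lower, with the largest counts without sham 1.

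Over all models, 4 passed limma, against 7 with a floor of 0.1, 7 with no floor, and 3 to 95 with a library left out (95 without sham 1, 9 without sham 2). With the replicate number as a block 7 passed and no neighbour did. Deviations of same-numbered samples from their arm means had correlations of -0.11, 0.06 and -0.01. Those of differently numbered samples ran from -0.23 to 0.27. With so few samples these values cannot decide whether the numbers pair the samples, which the labels do not say. Neighbours past the threshold were 0 to 3 with a library left out and 0 in every other alternative. The log2 ratios of the 51 of the 115 models named in the text kept their sign in all 459 recomputations. With a changed pseudocount or a library left out, the rule fixes that sign in advance, since the arms do not overlap. Of the 459, 442 moved by less than the spread between replicates. Depth limits the 14 models with fewer than 100 reads most.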

Other observations

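Below the floor of 0.5 in mean RPKM, 181 of 11317 LOC models also had arms apart and a ratio of at least 2 or at most 0.5. They were not described further.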
